A study of Homo sapiens with 12 samples.

Results

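The comparison described here is between SW48 cells given sgWRN2 and SW48 cells given sgWRN3, which are 2 guide RNAs against the same gene, WRN. SW48 is a colorectal cancer line, and all cells expressed the Cas9 nuclease. By the labels the guide is the difference between the groups, but the labels do not say how the libraries were handled. The 4 libraries, A and B of each guide, were chosen by cell line and guide label, out of 12 in the series. The other libraries serve for reference: 2 of SW48 with sgCh2-2, taken here as the control guide, and 6 of OVK18, an ovarian cancer line, with sgWRN2, sgWRN3 or sgCh2-2, 2 libraries each. All cells were collected 72 h after transduction with the guide, and total RNA was turned into messenger RNA libraries. The replicates carry only the letters A and B, and the labels do not say that they were separate cultures, so p values measure the spread between libraries, which may be technical. No label says which exon each guide cuts or how much WRN protein was left. The pool of transduced cells was sequenced in bulk.

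WRN encodes a RecQ helicase that unwinds unusual DNA structures, and cancer cells with microsatellite instability, a state of lost mismatch repair, depend on it. Its loss in such cells is known to cause DNA breaks, activation of the transcription factor p53 and arrest of the cell cycle. In arrested cells p53 raises CDKN1A, an inhibitor of cyclin-dependent kinases, and the DREAM complex and its relatives then repress genes of S phase and mitosis.

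The SW48 libraries held 17144701 and 15423162 counts with sgWRN2, 16494023 and 16376019 with sgWRN3, and 30752291 and 18301780 with sgCh2-2, against 15423162 to 32581625 over the series. Levels are CPM, that is counts scaled to a common library size by TMM, so 1 count was worth 0.0605 and 0.0638 CPM in the sgWRN2 libraries and 0.0596 and 0.0603 CPM in the sgWRN3 libraries. Of 10 intestinal markers, 9 had counts in each SW48 library, CDX1 had none, and their summed level was 824 to 903 CPM with sgWRN2, 804 to 815 CPM with sgWRN3 and 838 to 861 CPM with sgCh2-2. CDX2, an intestinal transcription factor, stood at 77.2 and 81.2 CPM with sgWRN2 and at 92.8 and 68.0 CPM with sgWRN3. The 8 fibroblast markers summed to 3.63 and 4.02 CPM with sgWRN2 and to 2.33 and 3.44 CPM with sgWRN3. Most of this was FBN1, at 3.15 and 3.57 CPM with sgWRN2 and 2.09 and 2.95 CPM with sgWRN3. COL1A2, PDGFRA, DCN and THY1 had 0 counts in all 6 SW48 libraries. The 8 leukocyte and endothelial markers summed to 12.9 and 14.1 CPM with sgWRN2 and to 10.8 and 11.2 CPM with sgWRN3. Most of this was CD68, at 8.41 and 10.1 CPM with sgWRN2 and 8.23 and 7.78 CPM with sgWRN3, and PTPRC. PTPRC stood at 4.18 and 3.76 CPM with sgWRN2 and at 2.27 and 3.38 CPM with sgWRN3. CD3E, PECAM1 and CDH5 were among those at 0 counts in all 6. Libraries A and B of a group stood apart. On the second principal component of the 6 SW48 libraries, with 35.7% of the variance, the sgWRN2 libraries A and B stood at 12.04 and 0.55, those of sgWRN3 at -13.5 and 7.34, and those of sgCh2-2 at -12.8 and 6.33. On the first component, with 42.3%, they stood at -11.5 and -14.6 with sgWRN2, at -2.20 and 8.83 with sgWRN3, and at 3.71 and 15.8 with sgCh2-2, so A and B were apart there too in the sgWRN3 and sgCh2-2 groups.

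WRN transcript was examined first. It stood at 37.2 and 34.1 CPM with sgWRN2, against 42.3 and 56.9 CPM with sgWRN3 and 91.2 and 111.6 CPM with sgCh2-2. Both sgWRN2 libraries thus lay below both sgWRN3 libraries, and all 4 lay below both control libraries. The log2 difference between the guides, -0.48 (SE 0.16), did not pass the test (adjusted p = 0.31 by edgeR's quasi-likelihood test with Benjamini-Hochberg adjustment, as all adjusted p values below). A transcript level does not show how many WRN copies were cut, because an edited gene can still be transcribed. In OVK18 the WRN transcript stood at 22.01 and 21.0 CPM with sgWRN2, against 22.2 and 23.0 CPM with sgWRN3 and 32.0 and 39.8 CPM with sgCh2-2.

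With sgWRN2, genes of mitosis and DNA replication were lower in SW48 than with sgWRN3, and a smaller group was higher, among them NEFM, BEX4, CD55, AKAP12 and CDKN1A. In all 134 of 14199 genes tested were called at an adjusted p under 0.05 (0.944%), of which 41 were higher (0.289%) and 93 lower (0.655%) with sgWRN2, and 1221 had an unadjusted p under 0.05 (8.6%). The median log2 fold change over all genes tested was 0.02. Each group has 2 libraries, and the number of calls rests on all 4: it was 3 without sgWRN2 A, 17 without sgWRN2 B, 77 without sgWRN3 A and 8 without sgWRN3 B. In those fits the lone library was assumed to vary like the libraries of the other groups. DESeq2 called 298 genes and limma-voom 145, of which 123 and 120 were among the 134. With only the 6 SW48 libraries in the fit the count was 34. With a replicate block, a term for the letters A and B within each line, it was 43.

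**Figure D1:**
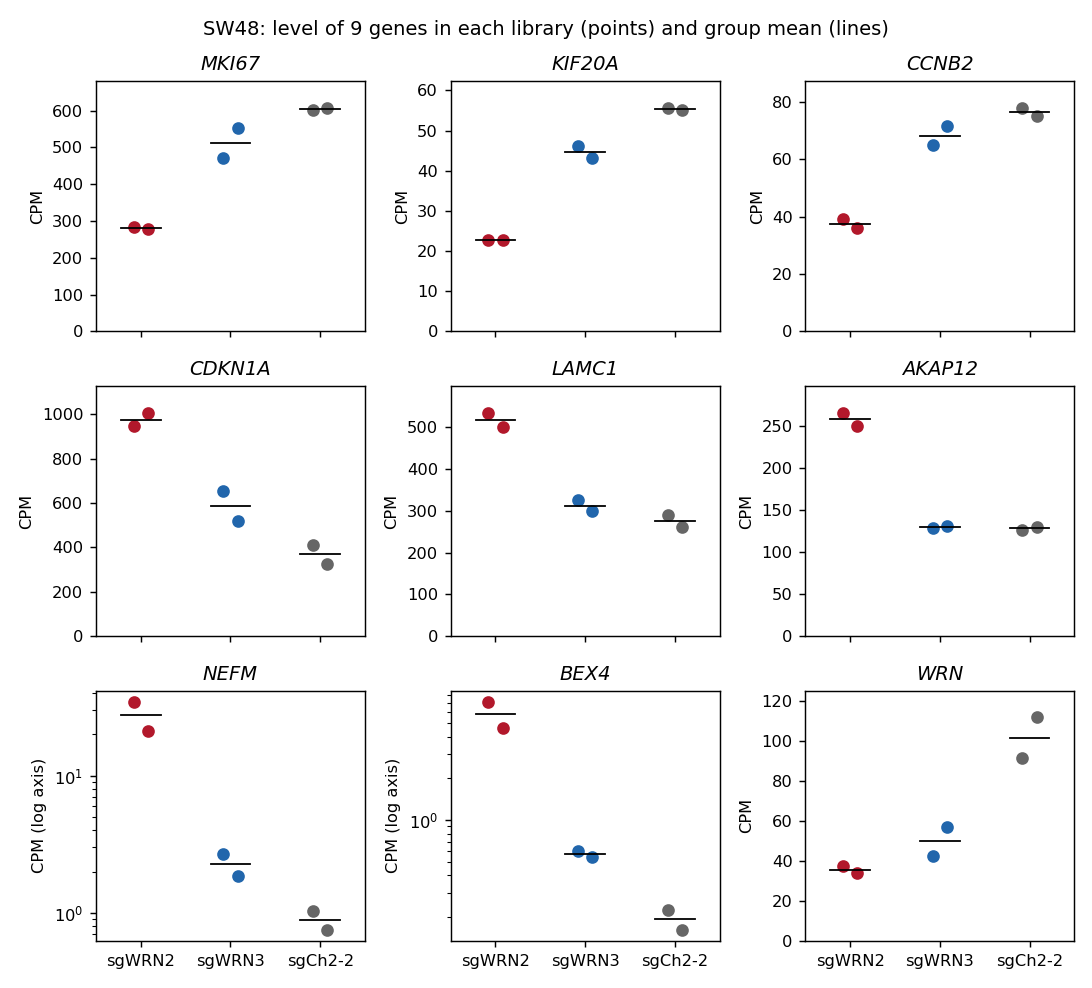
Level in CPM of 9 genes in the 6 SW48 libraries, by guide, with points for libraries A and B and a line for the mean; NEFM and BEX4 have a log axis and the others start at 0. For MKI67, KIF20A and CCNB2 both sgWRN2 libraries lie below both sgWRN3 libraries and these below the controls, while AKAP12 stands at 258 CPM with sgWRN2 on average, against 130 CPM with sgWRN3 and 128 CPM with sgCh2-2.

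Mitotic genes made up the largest block of lower genes. Of the 50 on the list, 30 were lower with sgWRN2 and 0 higher, with a median log2 fold change of -0.72, where 0.655% of all genes tested were lower. In 49 both sgWRN2 libraries lay below both sgWRN3 libraries, as they did for 13.9% of all genes tested. MKI67, which coats mitotic chromosomes and marks cycling cells, stood at 284 and 279 CPM with sgWRN2, against 472 and 552 CPM with sgWRN3 and 601 and 608 CPM with sgCh2-2 (log2 fold change -0.86, SE 0.09, adjusted p = 0.00248). KIF20A, a kinesin of the late spindle, stood at 22.8 CPM in both sgWRN2 libraries, against 46.1 and 43.2 CPM with sgWRN3 and 55.7 and 55.2 CPM with sgCh2-2 (-0.97, SE 0.12, adjusted p = 0.00514). For both genes the 3 guides did not overlap, with sgWRN3 between sgWRN2 and the control. The libraries are of bulk RNA, so fewer cells in mitosis and less of these RNAs per cell cannot be told apart.

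The mitotic cyclins and the regulators of their destruction moved alike. CCNB1, the main mitotic cyclin, stood at 89.7 and 81.6 CPM with sgWRN2, against 148 and 151 CPM with sgWRN3 (-0.80, SE 0.10, adjusted p = 0.00532), and CCNB2 at 39.1 and 35.98 CPM, against 65.0 and 71.5 CPM (-0.86, SE 0.11, adjusted p = 0.00582). CDC20, which activates the anaphase-promoting complex, stood at 36.9 and 39.3 CPM with sgWRN2, against 74.5 and 64.4 CPM with sgWRN3 (-0.87, SE 0.14, adjusted p = 0.0145). Mitotic kinases were lower too, with log2 fold changes of -0.85 for NEK2, -0.81 for PLK1 and -0.70 for AURKA. So were FOXM1, a transcription factor that drives mitotic genes (-0.74), BIRC5, the survivin subunit of the chromosomal passenger complex (-0.73), and CASC5, a kinetochore scaffold (-0.85). KIF14, a kinesin of cytokinesis, had -0.86, and ARHGEF39, a gene on none of the lists, had the lowest value of the named genes (-1.02, SE 0.19, adjusted p = 0.0285). PLK1, AURKA, FOXM1 and BIRC5 were picked after their values were seen. The count of 30 was 0 without sgWRN2 A, 1 without sgWRN2 B and 2 without sgWRN3 B, and was 21 without sgWRN3 A, while the log2 fold change of MKI67 ran from -0.98 to -0.77 over all alternatives.

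Many promoters of mitotic genes carry a CHR element, a short motif through which the DREAM complex and FOXM1 act, and its letters were searched in RefSeq promoter sequences (GRCh38.p14, 250 bases before to 50 after the start). The 100 bases before the start are given for 6 mitotic genes that were lower with sgWRN2, since the mitotic list held the most calls, and capitals mark the motif TTTGAA. They lie at chr10:128126424-128126523 on the minus strand for MKI67, and on the plus strand at chr15:59105046-59105145 for CCNB2, chr16:23678789-23678888 for PLK1, chrX:70290004-70290103 for KIF4A, chr1:43358881-43358980 for CDC20 and chr5:138179012-138179111 for KIF20A.
MKI67: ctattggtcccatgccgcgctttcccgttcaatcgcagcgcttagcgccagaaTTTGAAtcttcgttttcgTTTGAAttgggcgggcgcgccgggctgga
CCNB2: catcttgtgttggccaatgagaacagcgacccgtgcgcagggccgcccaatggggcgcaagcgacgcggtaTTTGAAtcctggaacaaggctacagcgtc
PLK1: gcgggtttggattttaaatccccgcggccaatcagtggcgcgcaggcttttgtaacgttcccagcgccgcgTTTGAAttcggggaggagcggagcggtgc
KIF4A: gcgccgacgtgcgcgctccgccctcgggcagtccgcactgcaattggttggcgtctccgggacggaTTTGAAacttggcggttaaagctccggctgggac
CDC20: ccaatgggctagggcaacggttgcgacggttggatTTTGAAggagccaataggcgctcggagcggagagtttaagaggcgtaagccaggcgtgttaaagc
KIF20A: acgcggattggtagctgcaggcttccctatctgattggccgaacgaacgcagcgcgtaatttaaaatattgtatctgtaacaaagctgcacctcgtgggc

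In the stretches shown TTTGAA began 47 and 29 bases before the start in MKI67, 29 before it in CCNB2 and PLK1, 34 in KIF4A and 65 in CDC20. The stretch shown for KIF20A holds no TTTGAA on either strand. Only these letters were searched, so other forms of the element may be missed. Over the whole window of 300 bases, on either strand, TTTGAA stood in 21 of the 27 lower mitotic genes with a promoter in the table (77.8%; 27 of 30 matched). It stood in 34 of the 76 matched promoters of all 93 lower genes (44.7%), which include the mitotic ones. Among lower genes on no mitotic list it stood in 13 of 49 matched promoters (26.5%). It stood in 3 of the 33 matched promoters of the 41 higher genes (9.1%) and in 15.4% of all 27305 promoters. It began within the last 60 bases before the start in 48.1% of the lower mitotic genes, in 3.0% of the higher genes and in 3.0% of all promoters. The mitotic list as a whole, whether lower or not, held it in 32 of 45 promoters (71.1%). A match of these letters is not a binding site, and no factor's binding was measured.

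**Figure D2:**
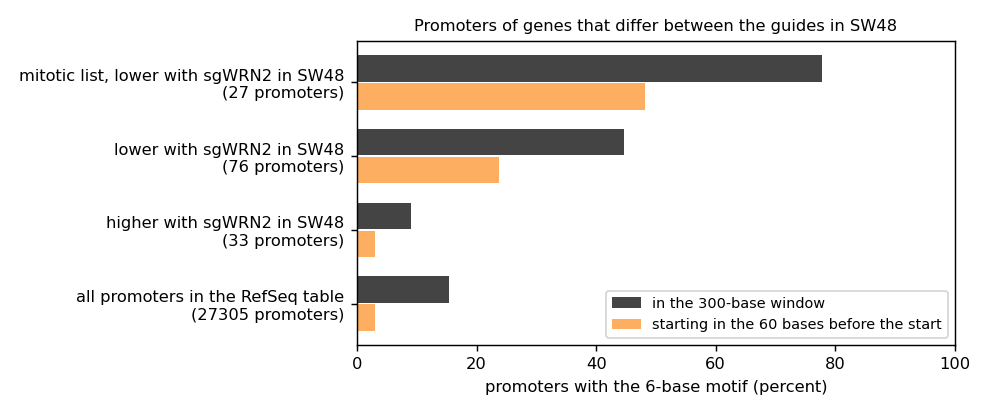
Percent of promoters with TTTGAA in the window of 300 bases (dark) and within the last 60 bases before the start (light), for lower mitotic genes, all lower genes, higher genes and all promoters. The share is 77.8% in lower mitotic genes, against 15.4% in all promoters. The bars for all lower genes include the mitotic ones, and lower genes on no mitotic list, not drawn, had 26.5%.

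S phase and DNA replication genes were the next block. Of 49, 16 were lower with sgWRN2 and 0 higher (median -0.50), where 0.655% of all genes tested were lower. Both sgWRN2 libraries lay below both sgWRN3 libraries in 47, as they did for 13.9% of all genes tested. RRM2, which makes deoxynucleotides, stood at 126.5 and 119 CPM with sgWRN2, against 206 and 220.0 CPM with sgWRN3 (-0.79, SE 0.11, adjusted p = 0.00716). MCM4, a subunit of the replicative helicase, stood at 257.5 and 242 CPM with sgWRN2, against 373.5 and 356 CPM with sgWRN3 (-0.55, SE 0.09, adjusted p = 0.016), and E2F8, a cell cycle transcription factor, was lower by a like amount (-0.80). TICRR, which starts replication and is named for the size of its change, had -0.86. Without sgWRN2 A, sgWRN2 B or sgWRN3 B the count of 16 was 0, without sgWRN3 A it was 5, and without OVK18 sgWRN3 B it was 10.

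Of 46 genes of double-strand break repair, 4 were lower and 0 higher (median -0.25), where 0.655% of all genes tested were lower. Of the 46, 37 had a log2 fold change below 0 and 9 above it. The 3 named first are known to be expressed mainly in S phase. FANCI and FANCD2, partners in crosslink repair, stood at 63.1 and 61.8 CPM and at 34.1 and 38.5 CPM with sgWRN2, against 93.7 and 111.1 CPM and 56.3 and 69.7 CPM with sgWRN3 (-0.71 and -0.79). BRCA1, which directs break repair to homologous recombination, had -0.72. Among the 5 RecQ helicases BLM was lower (28.1 and 28.7 CPM with sgWRN2, against 41.7 and 53.6 CPM with sgWRN3; -0.75, SE 0.14, adjusted p = 0.0275), and RECQL had -0.33 (adjusted p = 0.452). Of 7 mismatch repair genes tested, EXO1, an exonuclease that is also used in break resection, was lower (-0.71, adjusted p = 0.016), while MSH6, which helps recognise mismatches, had -0.26 (adjusted p = 0.375).

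The p53-activated genes leaned the other way, though few passed. Of 48, 2 were higher with sgWRN2 and 0 lower, where 0.289% of all genes tested were higher. The median log2 fold change was 0.25, and in 30 both sgWRN2 libraries lay above both sgWRN3 libraries, as they did for 18.8% of all genes tested. CDKN1A stood at 945 and 1008 CPM with sgWRN2, against 655 and 519 CPM with sgWRN3 and 412 and 326 CPM with sgCh2-2, so the 3 guides did not overlap (0.73, SE 0.14, adjusted p = 0.0281). It lost the call in 11 of 26 alternatives, over which its adjusted p ran from 2.66e-06 to 0.296. The other was ABCA12, a lipid transporter of the epithelium, at 66.8 and 61.9 CPM with sgWRN2, against 33.7 and 34.3 CPM with sgWRN3 (0.92, SE 0.15, adjusted p = 0.0168). MDM2, whose product marks p53 for degradation, stood at 1084 and 857.5 CPM with sgWRN2, against 642 and 689 CPM with sgWRN3 and 471.5 and 480.2 CPM with sgCh2-2 (0.54, SE 0.15, adjusted p = 0.162). TP53INP1, a p53-induced nuclear protein, had 0.60 (adjusted p = 0.0816).

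**Figure D3:**
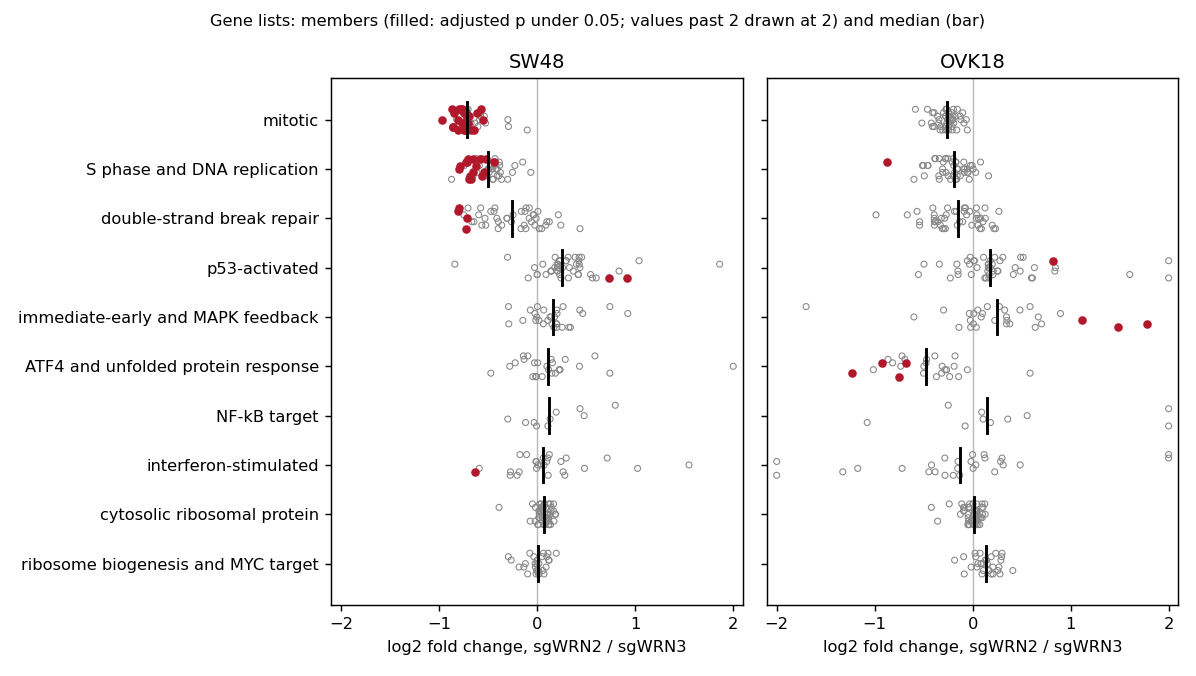
Log2 fold change of sgWRN2 over sgWRN3 for the members of 10 gene lists in SW48 (left) and OVK18 (right), with filled points for genes at an adjusted p under 0.05 and a bar for the median; values past 2 are drawn at the edge. Of 50 mitotic genes 30 are filled in SW48 and 0 in OVK18, with medians of -0.72 and -0.26.

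Other lists held few calls, where 0.289% of all genes tested were higher and 0.655% lower. ABCA12 was the 1 higher gene of 24 for epithelial differentiation, WDR35, a ciliary transport protein, of 17 for intraflagellar transport, AGO2 of 13 for argonautes and microRNA processing, and CD55 of 4 membrane complement regulators, each with 0 lower. OAS3, which senses viral RNA, was the member of 27 interferon-stimulated genes that was lower (-0.63, adjusted p = 0.034), and 0 were higher. None of the members of the ATF4 and unfolded protein response list (26), the immediate-early and MAPK feedback list (30), the cholesterol synthesis list (26), the hypoxia and glycolysis list (29), the Wnt target list (20), the BCL2 family and caspase list (24), the NF-kB target list (10), the ribosome biogenesis and MYC target list (29) or the cytosolic ribosomal protein list (56) passed in either direction. Medians of these lists lay between -0.02 and 0.16. Replication-dependent histones, whose messages mostly lack a poly-A tail, had 0 calls of 15 (median 0.24), and their summed level was 165 and 159 CPM with sgWRN2, against 129 and 117 CPM with sgWRN3 and 126 and 105 CPM with sgCh2-2. Both sgWRN2 sums lay above the other 4. None of the intestinal, fibroblast, leukocyte and endothelial, or Mullerian and ovarian markers passed.

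Among higher genes with a mean of at least 2 CPM in SW48 and groups that do not overlap, NEFM, the medium neurofilament of neurons, had the highest fold change, while 12 of all 41 higher genes had a fitted value above it. It stood at 34.5 and 21.2 CPM with sgWRN2, against 2.68 and 1.87 CPM with sgWRN3 and 1.03 and 0.756 CPM with sgCh2-2 (3.61, SE 0.29, adjusted p = 0.000459). BEX4, of a small family of brain-expressed adaptor proteins, stood at 7.14 and 4.59 CPM with sgWRN2, against 0.596 and 0.543 CPM with sgWRN3 and 0.224 and 0.162 CPM with sgCh2-2 (3.35, SE 0.32, adjusted p = 0.00119). NGFRAP1, also called BEX3, stood at 1.69 and 1.34 CPM with sgWRN2, against 0.418 and 0.362 CPM with sgWRN3 (1.95, SE 0.28, adjusted p = 0.00863). These were the 3 of 12 neurofilament and BEX genes that were higher, where 0.289% of all genes tested were higher. NEFM, BEX4 and AKAP12 stayed past the threshold in all 26 alternatives, those without 1 library included.

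Among well expressed genes, CD55, which protects cells from complement, stood at 1516 and 1362 CPM with sgWRN2, against 678 and 791 CPM with sgWRN3 (0.97, SE 0.10, adjusted p = 0.00248). AKAP12, an anchoring protein for protein kinase A, stood at 266 and 250.1 CPM with sgWRN2, against 128 and 132 CPM with sgWRN3 and 127 and 130.2 CPM with sgCh2-2 (0.99, SE 0.09, adjusted p = 0.00119). For AKAP12 the sgWRN3 and control libraries overlapped, and both sgWRN2 libraries lay above them. SAT1, which acetylates polyamines, stood at 82.4 and 90.1 CPM with sgWRN2, against 43.0 and 55.5 CPM with sgWRN3 (0.81), and DSC2, a desmosomal cadherin, at 475 and 415 CPM, against 235 and 280.3 CPM (0.79). HOMER2, a synaptic scaffold, had 1.56, and ZNF596, a zinc finger protein, 0.99. FLG-AS1 had 1.20, an uncertain value, since its name gives it as antisense and the strand setting of the counts is not given in the sources used here.

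The control libraries were set beside both guides. Both sgCh2-2 libraries lay on the sgWRN3 side of the midpoint between the guides for 40 of the 41 higher genes and 93 of the 93 lower genes, as for 6163 of all 14199. The control mean lay beyond the sgWRN3 mean, on the side away from sgWRN2, for 31 of the 41 and 89 of the 93, as for 6762 of all 14199. The 134 genes were chosen on the difference between the guides, so these counts are a description. The contrasts of each guide with sgCh2-2 share the control libraries: sgWRN2 against sgCh2-2 called 437 genes (3.08%), 160 higher (1.13%) and 277 lower (1.95%), with 13.1% at an unadjusted p under 0.05. The contrast of sgWRN3 with sgCh2-2 called 0 in edgeR, where 262 had an unadjusted p under 0.05 (1.85%), 0 in limma-voom and 9 in DESeq2. Mitotic genes had a median of -0.95 in the first (45 of 50 lower) and -0.24 in the second (0 of 50 called). The p53-activated genes had medians of 0.50 (19 of 48 higher) and 0.23 (0 of 48 called).

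In 28 of the 41 higher genes the mean over the SW48 control libraries was under 1 CPM (68.3%), as it was in 17.4% of all genes tested. It was so in 0 of the 93 lower genes, but a gene at that level has little room to be called lower. Genes under 1 CPM in the SW48 controls but at 10 CPM or more in the OVK18 controls were taken as a set of 541, defined from the control libraries after the data were seen and passing the filter on low counts through OVK18. Of these 16 were called higher with sgWRN2 in SW48 (2.96%), and 7 of 1130 genes under 1 CPM in the controls of both lines (0.619%). Of all genes tested 0.289% were called higher. The 1130 could not pass the filter through high control counts in OVK18, so the sets are not alike. The difference between these shares was not tested. With only the 6 SW48 libraries in the fit the count of 16 was 5. The 0 called lower are read as nothing about the set, for the same lack of room. The count of 16 became 1 without sgWRN2 A, 7 without sgWRN2 B, 9 without sgWRN3 A and 2 without sgWRN3 B. The summed level of the 541 was 131 and 107 CPM with sgWRN2, against 58.0 and 68.1 CPM with sgWRN3 and 60.1 and 56.4 CPM with sgCh2-2. That of the 1130 was 527 and 603 CPM with sgWRN2, against 455 and 596 CPM with sgWRN3. At 1 CPM or more stood 28 and 25 of the 541 with sgWRN2, 5 and 10 with sgWRN3, and 3 and 3 with sgCh2-2. Both sgWRN2 libraries thus lay above both sgWRN3 libraries, while the low control values follow from the definition of the set. Of the 1130, 95 and 156 stood at 1 CPM or more with sgWRN2, against 64 and 144 with sgWRN3, so the guides overlapped there.

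**Figure D4:**
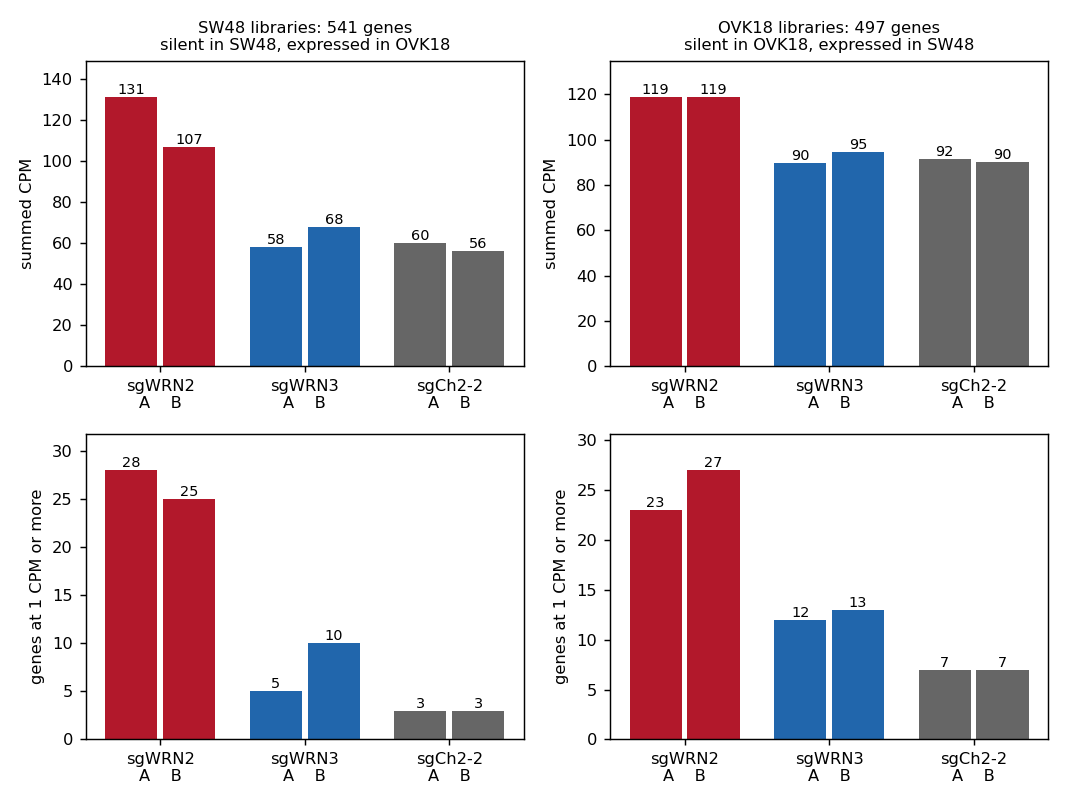
Summed CPM (top) and number of genes at 1 CPM or more (bottom) in each library, for the 541 genes silent in SW48 and expressed in OVK18, in SW48 libraries (left), and the 497 genes silent in OVK18 and expressed in SW48, in OVK18 libraries (right). Both sgWRN2 libraries stand above both sgWRN3 libraries in each panel, at 131 and 107 summed CPM in SW48 and 119 in both in OVK18. The control libraries are low by the definition of the sets.

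Genes picked from this set after their values were seen show its range. CBS, an enzyme of cysteine synthesis, stood at 4.36 and 2.93 CPM with sgWRN2, against 0.895 and 0.482 CPM with sgWRN3 (adjusted p = 0.00952), MYH10, a non-muscle myosin, at 3.27 and 1.98 CPM, against 0.239 and 0.0603 CPM (adjusted p = 0.014), and EID1, a regulator of differentiation, at 5.33 and 2.42 CPM, against 0.298 and 0.121 CPM (adjusted p = 0.0431). Their lowest OVK18 library values were 135 CPM for CBS, 407 CPM for MYH10 and 183 CPM for EID1. Genes of the set with the highest OVK18 control levels were low in SW48 with both guides. KIT, a receptor kinase at 3548 CPM in the OVK18 controls, stood at 0.242 and 0.191 CPM with sgWRN2 and at 0.0596 and 0.543 CPM with sgWRN3 in SW48, and SPP1, at 3465 CPM in the OVK18 controls, stood at 0.242 and 0.0638 CPM with sgWRN2 and at 0.298 and 0.181 CPM with sgWRN3. SLC34A2, a phosphate transporter at 1122 CPM in the OVK18 controls, had 0 counts in both sgWRN2 libraries. In the mirror set of 497 genes silent in OVK18 and expressed in SW48, 10 were called higher with sgWRN2 in OVK18 (2.01%). Of all genes tested 0.437% were called higher there, and this set passed the filter on low counts through SW48. Its summed level in OVK18 was 119 CPM in both sgWRN2 libraries, against 89.5 and 94.7 CPM with sgWRN3 and 91.6 and 90.0 CPM with sgCh2-2.

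The same guides were compared in OVK18, where 106 genes were called (0.747%), 62 higher (0.437%) and 44 lower (0.31%). No library is shared between the lines, but both sets of calls come from 1 fit over all 12 libraries. The A minus B deviations of the sgWRN2 groups also correlated at 0.72 between the lines, so the lines are not fully separate. Of the 41 genes higher in SW48, 9 were also higher in OVK18, which is 21.95% of the 41 and 14.5% of the 62. Of the 93 lower genes, 6 were also lower in OVK18, which is 6.45% of the 93 and 13.6% of the 44, and 0 genes were called in opposite directions. The 9 are NEFM, LAMC1, AGO2, LNPEP, TNFRSF10D, ZNF596, CCDC8, CCDC181 and COL4A2, and the 6 are CDC6, TMEM133, GPR161, CTDSPL, UBFD1 and LOC100506548. Apart from NEFM, AGO2, ZNF596 and TMEM133 they are outside the naming rule.

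NEFM stood at 30.2 and 26.1 CPM with sgWRN2 in OVK18, against 1.57 and 2.41 CPM with sgWRN3 and 0.66 and 0.619 CPM with sgCh2-2 (3.81, SE 0.28, adjusted p = 5.91e-05). LAMC1, a laminin chain of basement membrane, stood at 535 and 499 CPM with sgWRN2 in SW48, against 325 and 299 CPM with sgWRN3 (0.73, adjusted p = 0.00532), and in OVK18 at 847 and 839 CPM, against 478 and 483 CPM (0.81, adjusted p = 0.00259). AGO2, the argonaute that slices RNA, had 0.71 in SW48 and 0.76 in OVK18, LNPEP, a membrane aminopeptidase, 0.60 and 0.83, TNFRSF10D, a decoy receptor for TRAIL, 0.62 and 0.48, and ZNF596 0.99 and 0.91. AGO2 stood at 95.6 and 87.3 CPM with sgWRN2, against 57.1 and 54.9 CPM with sgWRN3 and 54.8 and 54.5 CPM with sgCh2-2 in SW48.

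COL4A2, a basement membrane collagen, rested on 35 counts in both sgWRN2 libraries of SW48, against 2 with sgWRN3, a ratio of 18.1 (exact 95% counting interval 4.66 to 155.5). In OVK18 it had 47 counts with sgWRN2, against 3 with sgWRN3, a ratio of 16.3 (5.25 to 82.0). Ratios of this kind are scaled by library size, and their intervals cover counting error only. CCDC181 had a ratio of 10.01 in SW48 (3.10 to 51.4) and 15.3 in OVK18 (4.90 to 76.9). The SW48 call was lost in 13 of 20 alternatives for CCDC181, 14 of 22 for CCDC8 and 8 of 22 for COL4A2, and the OVK18 call in 4, 2 and 9 of 22. In OVK18 it was also lost in 13 of 26 for TNFRSF10D and in 17 of 26 each for GPR161 and UBFD1. CDC6, which licenses replication origins, stood at 54.8 and 46.8 CPM with sgWRN2 in SW48, against 84.2 and 83.9 CPM with sgWRN3 (-0.73), and in OVK18 at 35.6 and 31.1 CPM, against 65.1 and 57.4 CPM (-0.87). TMEM133 had -0.90 in SW48 and -0.78 in OVK18, GPR161, a ciliary receptor of the Hedgehog pathway, -0.58 and -0.57, and CTDSPL, a phosphatase, -0.41 and -0.57.

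**Figure D5:**
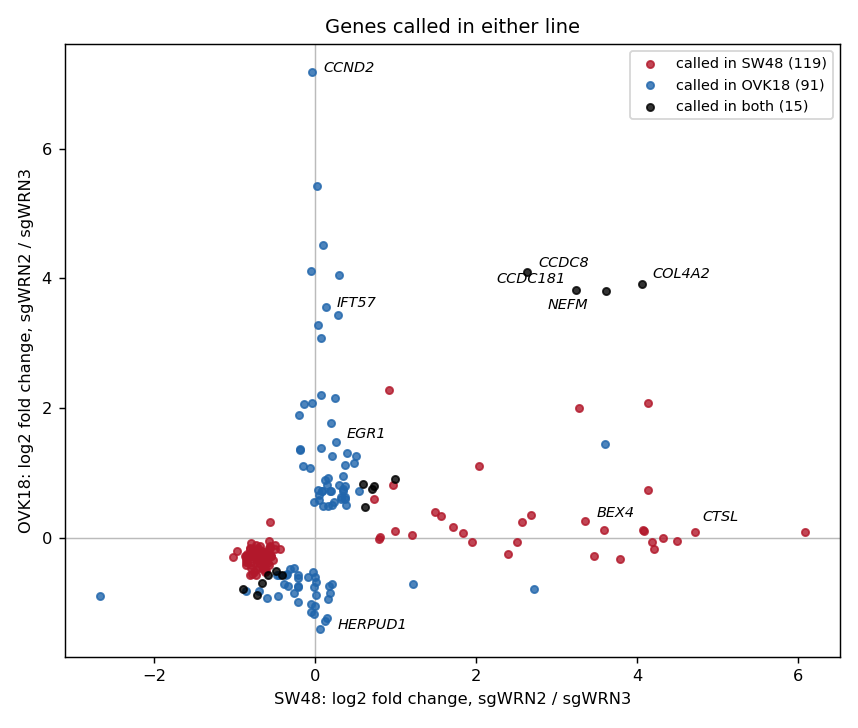
Log2 fold change of sgWRN2 over sgWRN3 in SW48 (horizontal) and OVK18 (vertical) for the genes called in either line. The 15 black points were called in both, and the cluster at the left holds the cell cycle genes, called in SW48.

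The genes lower in SW48 were next followed in OVK18. Of the 93 lower genes 92 had a log2 fold change below 0 in OVK18, where the median was -0.27, against -0.71 in SW48, and 7241 of all 14199 genes tested were below 0 there. The mitotic list had a median of -0.72 in SW48 and -0.26 in OVK18, and the S phase list -0.50 and -0.19. In OVK18, 39 of the 50 mitotic genes had both sgWRN2 libraries below both sgWRN3 libraries, as had 21.7% of all genes tested. The difference between the lines was called for 23 genes in all (0.162%), 13 higher (0.0916%) and 10 lower (0.0704%), while 6.18% had an unadjusted p under 0.05. Among the 23 were 0 of the 93 lower genes and 11 of the 41 higher ones. Of these 11, 10 had an SW48 control mean under 1 CPM. The test contains the same SW48 difference on which the 93 and the 41 were chosen, so these counts are a description. MKI67 in OVK18 stood at 286 and 281 CPM with sgWRN2, against 360.5 and 350 CPM with sgWRN3 (-0.33, adjusted p = 0.133), and CDKN1A at 253 and 295 CPM, against 187 and 172 CPM (0.61, SE 0.14, adjusted p = 0.0668). AKAP12, at 139 and 125 CPM with sgWRN2 against 121 and 121.5 CPM with sgWRN3 in OVK18, had 0.12 there (adjusted p = 0.608).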

How the data were processed

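Total RNA of 12 bulk samples, in 6 groups of 2, was made into mRNA libraries. The authors deposited a table of raw read counts per gene, made with bcl2fastq 2.18 and STAR 2.5 on build hg19, per the submitters' processing notes. A second table was deposited by the authors and taken to hold FPKM, reads scaled by gene length and depth, since the quotient of count and value is larger for long genes. Cufflinks 2.2.1 stands in the same notes. Annotation and strand setting are not given in the sources used here. The 92 spike-in features held 0 counts in all and were left out, as were 28 symbols turned into dates from naming.

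The counts were fitted with edgeR 4.0.16 (R 4.3.3) after TMM scaling, filterByExpr over 6 groups (14199 of 25343 genes), 1 coefficient per group over all 12 libraries, robust quasi-likelihood F tests (6 residual degrees of freedom), and calls at a Benjamini-Hochberg adjusted p under 0.05. Standard errors are the log2 fold change over the square root of F. Alternatives used DESeq2 1.42.0, limma 3.58.1 (voom, and log2 FPKM with a pseudocount), other scalings and filters, fewer libraries, replicate blocks and each library left out. The steps were tested on simulated data. Replicates differed beyond counting error (chi-square per gene 8.67 to 24.9). Intervals and the floor of 3 counts over a group cover counting error only.

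Genes were named by rule: WRN, CDKN1A and MDM2; the 10 highest and 10 lowest called genes with a mean of at least 2 CPM in SW48 and groups that do not overlap; up to 3 members of each of 26 lists by p, not all of them printed; and 5 and 5 for the difference between lines. The comparison and the lists were chosen with earlier results of these data known. Other genes are said to be picked after their values were seen, or stand outside the rule. The motif search used Python 3.11.15.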

Additional observations from a re-analysis of the deposited data

Results flagged for a closer look

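The difference between the guides was itself different in SW48 and OVK18 for 10 named genes, by the test of that difference in edgeR. The values below are fitted log2 differences, SW48 minus OVK18, and for genes with few counts they depend on the fit, so the counts of libraries A and B stand beside them. The 10 were named for the largest fitted differences, which near-zero counts in 1 line readily give. Such a gene passes the filter and the minimum mean CPM through the other line. All 5 genes with a higher difference in SW48 were nearly silent there and well expressed in OVK18, which this rule favours. These calls were often lost under the alternatives: in 18 of 24 for WDR35, 17 of 24 for TES, 16 of 24 for ARHGEF37, 13 of 24 each for CTSL and GYG2, 9 of 24 for HDGFRP3, 7 of 24 for CCND2, 3 of 23 for TSC22D3, and 1 of 24 each for FAM101B and HTATIP2. CTSL, a lysosomal protease, had 4.62 (SE 0.72, adjusted p = 0.0273), on 17 and 13 counts with sgWRN2 in SW48, against 0 and 1 with sgWRN3, a ratio of 31.1 (exact 95% counting interval 5.17 to 1268). HDGFRP3, a growth factor-related protein, had 4.53 (adjusted p = 0.0219), on 43 and 26 counts, against 2 and 1. WDR35, a protein of ciliary transport, had 4.38 (adjusted p = 0.0487), on 13 and 8 counts, against 1 and 0, a ratio of 21.8 (3.50 to 899). FAM101B had 4.11 (adjusted p = 0.00466), on 40 and 29 counts, against 1 and 4, and GYG2, a glycogenin, had 3.72 (adjusted p = 0.0273), on 11 and 12 counts, against 1 and 1.

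The 5 genes with a lower difference in SW48 were well expressed there and nearly silent in OVK18, which the naming rule favours in the same way. CCND2, a D-type cyclin, had -7.22 (SE 0.95, adjusted p = 0.0172): in OVK18 it had 29 and 9 counts with sgWRN2, against 0 and 0 with sgWRN3, so it was at least 13.2-fold higher there, taking the floor of 3 counts over the group. In SW48 CCND2 stood at 570.3 and 548 CPM with sgWRN2, against 543 and 605 CPM with sgWRN3. HTATIP2 had -5.39 (adjusted p = 0.00377), on 33 and 19 counts with sgWRN2 in OVK18, against 0 and 1 with sgWRN3, a ratio of 54.2 (9.30 to 2181). TES, a focal adhesion protein, had -4.43 (adjusted p = 0.0473), on 21 and 7 counts, against 0 and 1. ARHGEF37 had -4.17 (adjusted p = 0.0367), on 13 and 8 counts, against 1 and 0, and TSC22D3, a glucocorticoid-induced regulator, had -3.76 (adjusted p = 0.00513), on 66 and 35 counts, against 3 and 3.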

How the results depend on the processing

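For 96 results of single genes recomputed under the alternatives, 0 of 2445 values changed direction: 1921 stayed on the same side of the threshold, 504 lost the call and 20 gained it. Most of these genes were picked because they were called, and the alternatives reuse the same libraries. The steady direction was thus largely fixed in advance. Groups of 2 limit every count. With no filter on low counts the calls were 334 for sgWRN2 against sgWRN3 in SW48 (114 higher, 220 lower, 27 of them S phase genes, and 28 silent genes higher), 518 for the same guides in OVK18, 125 for the difference between lines, 688 for sgWRN2 and 22 for sgWRN3 against sgCh2-2. DESeq2 gave 298 (86 higher, 212 lower, 32 S phase genes), 530, 79, 709 and 9. In OVK18 limma-voom gave 161 calls. On log2(FPKM + 1) the counts were 175 in OVK18, 11 for the difference between lines, 4 silent genes and 4 for sgWRN3 against sgCh2-2, and with a pseudocount of 0.1 the last was 6. With only the 6 libraries of a line they were 34 in SW48 (12 higher, 22 lower, 11 mitotic, 2 S phase, 5 silent) and 25 in OVK18, and with only the 4 WRN-guide libraries 17 in OVK18. The letters A and B do not pair the libraries by any label, and the A minus B deviations of sgWRN2 and sgWRN3 in SW48 had a correlation of -0.33 across 9146 genes. These deviations were shared beyond a group: they correlated at 0.67 to 0.73 among the sgWRN3 and sgCh2-2 groups of both lines and at 0.72 between the sgWRN2 groups, and sgWRN2 ran against the rest at -0.72 to -0.31. The labels do not say what the letters stand for, the fit behind the reported calls has no such term, and the count of calls depends on it. With a replicate block the counts were 43 (19 higher, 24 lower, 12 mitotic, 2 S phase, 9 silent), 31 in OVK18, 10 for the difference between lines and 265 for sgWRN2 against sgCh2-2. With the sgWRN2 letters crossed in that block, chosen after seeing the data, they were 709 (316 higher, 393 lower, 46 mitotic, 44 S phase), 1790, 241, 1558 and 13 for sgWRN3 against sgCh2-2. Leaving out 1 library each gave 3 to 176 calls in SW48 (3 to 44 higher, 0 to 132 lower, 0 to 33 mitotic, 0 to 21 S phase, 1 to 17 silent), 11 to 100 in OVK18, 5 to 23 for the difference between lines, 148 to 520 for sgWRN2 and 0 for sgWRN3 against sgCh2-2.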

Other observations

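In OVK18 the guides also differed in gene groups that had no call in SW48. Of 26 genes of the ATF4 and unfolded protein response, 4 were lower with sgWRN2 in OVK18 (median -0.47), against 0 in SW48 (median 0.11). Of all genes tested 0.31% were lower in OVK18 and 0.437% higher. HSPA5, the main chaperone of the endoplasmic reticulum, stood at 927.5 and 841 CPM with sgWRN2 in OVK18, against 1932 and 1436 CPM with sgWRN3 (-0.93, adjusted p = 0.0165), and HERPUD1, which helps degrade misfolded proteins, at 38.0 and 36.2 CPM, against 98.6 and 75.4 CPM (-1.23, adjusted p = 0.00439). The call was lost in 7 of 26 alternatives for HSPA5 and in 1 of 26 for HERPUD1. On the list of 30 immediate-early and MAPK feedback genes, 3 were called higher in OVK18, and EGR1, a factor induced by growth signals, had 207 and 192 CPM with sgWRN2, against 72.9 and 69.5 CPM with sgWRN3 (1.49, adjusted p = 2.07e-05). In SW48 EGR1 stood at 455 and 439 CPM with sgWRN2, against 389 and 361 CPM with sgWRN3 (0.25, adjusted p = 0.328). Whether these lists differ between the lines was not tested as lists.

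By chromosome, 6 of the 41 genes higher with sgWRN2 in SW48 lie on X (14.6%), as do 3 of the 91 lower genes with a known chromosome (3.3%) and 3.46% of all genes tested. This was noticed after the values were seen and was not tested.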
